A study of Mus musculus with 18 samples.

Results

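The 43 genes described here encode the machinery of the cell cycle and of DNA replication, and they were chosen by gene symbol from a table of RPKM (reads per kilobase of transcript, scaled to the mapped reads of the library) in mouse liver. All 43 were found among the 19057 gene symbols of the table. They were arranged by role into D cyclins and their kinases (5 genes), inhibitors of cyclin-dependent kinases (2), E and A cyclins with Cdk2 (4), transcription factors (4), replication licensing (9), replication and nucleotide supply (6) and mitosis (13).

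The livers came from 18 ICR mice aged 10 weeks, 3 in each of 6 groups, and the study used males. Con mice were the controls, and AOS mice received alginate oligosaccharide at 10 mg/kg. STZ mice received streptozotocin, a toxin that destroys insulin-producing beta cells and models type 1 diabetes, and STZ+AOS mice received both STZ and AOS at 10 mg/kg. A10-FMT and Con-FMT mice received STZ and an oral transplant of pooled small intestinal contents, from donors given AOS at 10 mg/kg or from control donors, respectively. STZ was given once at the start of the experiment, so that 4 of the 6 groups carry it, and the donors' contents were pooled, so that the mice of a transplant group shared pooled donor material. The methods describe the Con, STZ and transplant groups, and when and how long the AOS and STZ+AOS mice were dosed is not given in the sources used here.

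In G1, D cyclins bind Cdk4 or Cdk6 and inactivate the retinoblastoma family, which frees E2F factors to drive the genes of S phase. Licensing then loads the MCM helicase at replication origins through Cdc6 and Cdt1, with geminin (Gmnn) preventing re-licensing, and cyclin B with Cdk1 drives mitosis. Adult hepatocytes are mostly quiescent and many are polyploid, and they can re-enter the cycle after injury.

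Promoters of 33 of the 43 members were available from RefSeq (build GRCm38.p6), as 37 windows of 300 bases that run from 250 before to 50 after the start. They are shown for 5 members that differ in role and in their response below. Capitals mark the letters searched on both strands, which were TTTGGCGC and TTTCGCGC (2 forms of the E2F site), TTTGAA (the cell cycle homology region, CHR, bound by the complexes that control mitotic genes) and CCAAT. Matches may overlap, as in Mcm6, where TTTGGCGC and the reverse strand of TTTCGCGC share bases.
Cdt1, licensing factor, chr8:122567765-122568064, plus strand: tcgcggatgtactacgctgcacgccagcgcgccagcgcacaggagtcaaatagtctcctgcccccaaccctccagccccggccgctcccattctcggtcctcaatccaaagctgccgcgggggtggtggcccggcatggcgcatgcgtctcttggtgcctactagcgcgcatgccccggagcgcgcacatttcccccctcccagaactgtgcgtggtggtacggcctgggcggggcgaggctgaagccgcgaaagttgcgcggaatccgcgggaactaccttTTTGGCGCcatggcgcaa
Mcm6, subunit of the replicative helicase, chr1:128359656-128359955, minus strand: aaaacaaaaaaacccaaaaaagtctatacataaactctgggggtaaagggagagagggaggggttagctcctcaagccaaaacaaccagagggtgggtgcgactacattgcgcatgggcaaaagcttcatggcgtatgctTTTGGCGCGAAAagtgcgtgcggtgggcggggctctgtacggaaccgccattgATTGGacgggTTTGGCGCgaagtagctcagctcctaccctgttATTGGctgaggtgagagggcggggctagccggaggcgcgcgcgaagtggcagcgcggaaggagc
Pcna, the sliding clamp of DNA polymerases, chr2:132253131-132253430, minus strand: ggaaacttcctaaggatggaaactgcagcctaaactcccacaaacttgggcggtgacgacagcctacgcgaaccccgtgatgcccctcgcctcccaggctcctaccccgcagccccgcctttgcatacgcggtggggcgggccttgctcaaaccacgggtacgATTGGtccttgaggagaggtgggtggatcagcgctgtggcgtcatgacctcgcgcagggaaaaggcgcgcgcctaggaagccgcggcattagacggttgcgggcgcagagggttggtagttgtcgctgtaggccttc
E2f8, a repressor of the E2F family, chr7:48881547-48881846, minus strand: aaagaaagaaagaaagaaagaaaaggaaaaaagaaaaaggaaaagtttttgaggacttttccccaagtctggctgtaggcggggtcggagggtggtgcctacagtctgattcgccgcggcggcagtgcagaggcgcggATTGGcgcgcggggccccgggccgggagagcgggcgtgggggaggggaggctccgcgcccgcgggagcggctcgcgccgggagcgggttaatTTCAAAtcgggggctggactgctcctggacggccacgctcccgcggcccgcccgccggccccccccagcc
Cdk1, the mitotic kinase, chr10:69352863-69353162, minus strand: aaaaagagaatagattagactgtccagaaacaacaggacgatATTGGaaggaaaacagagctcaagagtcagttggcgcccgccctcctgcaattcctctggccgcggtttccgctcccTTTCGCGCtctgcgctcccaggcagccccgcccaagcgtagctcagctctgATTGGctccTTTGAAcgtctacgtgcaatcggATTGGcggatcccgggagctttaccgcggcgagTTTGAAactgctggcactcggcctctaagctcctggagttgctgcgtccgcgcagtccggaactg

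An E2F match was present in 18.9% of the member promoters and in 0.813% of all 32851 promoters in the table. The CHR letters were in 27.0% and 17.9% and CCAAT in 70.3% and 37.4%, respectively. Among 11 promoters of mitosis members, 72.7% held the CHR letters and 90.9% held CCAAT, and among 8 of licensing members 62.5% held an E2F match. None of the 6 promoters (5 genes) available for members higher in both STZ comparisons below held the CHR letters, and 16.7% held an E2F match, that of Cdt1. A match is a run of letters and not a measured site.

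The table holds no read counts. Depth was estimated from RPKM multiplied by transcript length, and the median within a preset window of 45 to 110 was taken as 1 read. This put the libraries at an estimated 12680000 to 14060000 mapped reads. The value of 1 read had to fall inside that window, so the depth and the read numbers below are approximate. Genes at 1 RPKM or more numbered 9955 to 10409 per library. Summed RPKM was 749557 to 806937 in Con and 631126 to 684659 in STZ, and the median gene was 0.23 higher (log2) in STZ than in Con, as in STZ+AOS against AOS. STZ mouse 3 stood apart on the first principal component (55.2% of the variance), at 0.69 against 49.4 and 50.2 for the other STZ mice, where A10-FMT mice sat between -6.66 and 7.91. Hepatocyte markers, which define the labelled tissue, summed to at least 34530 RPKM in every library, and none of the 8 was at 0 throughout a group.

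**Figure D1:**
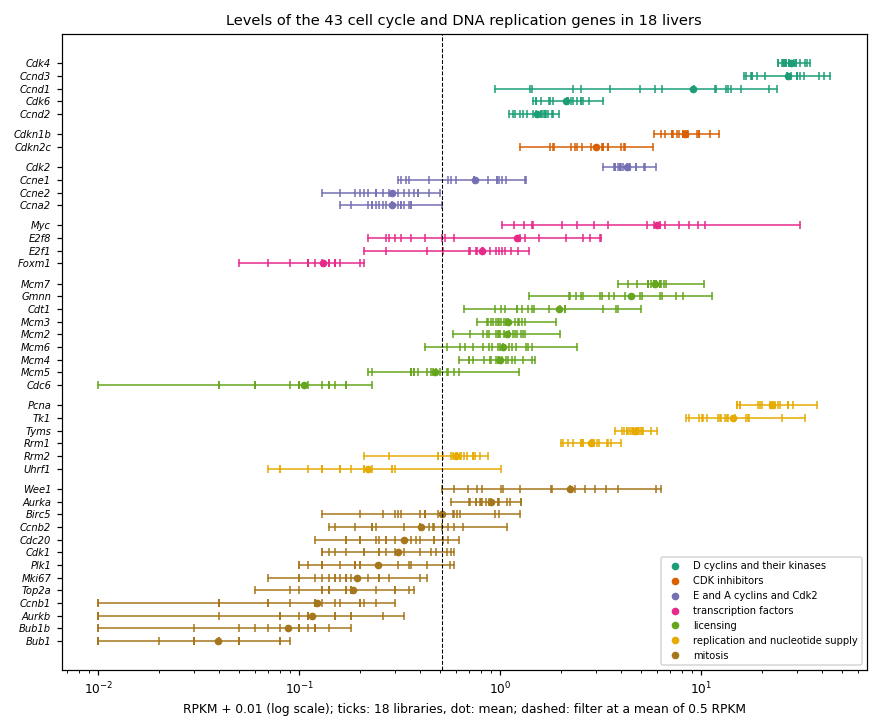
RPKM (0.01 added, log scale) of the 43 members, grouped by role. Ticks are the 18 libraries, dots the means and the dashed line the filter at a mean of 0.5 RPKM, and most mitosis genes lie to its left while Cdk4, Ccnd3 and Pcna lie above 10 RPKM.

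Levels varied within roles as well as between them, from 1.51 RPKM for Ccnd2 to 28.0 for Cdk4 among the D cyclins and their kinases and from 0.0294 for Bub1 to 2.21 for Wee1 in the mitosis group. The kinase Cdk4 averaged 28.0 RPKM over the 18 libraries (range 24.0 to 34.7), cyclin Ccnd3 26.9 (16.4 to 43.8) and Pcna 22.6 (15.0 to 37.7). Thymidine kinase Tk1, which salvages thymidine, averaged 14.4 (8.43 to 32.8). The 10 mitosis members under the filter were low in every group, the highest group mean being that of Ccnb2, 0.763 RPKM in STZ. Ccnb2 read 0.39, 0.22 and 0.18 in Con and 1.07, 0.58 and 0.64 in STZ, without overlap. Tested without the filter, it was called higher in STZ against Con, where 20.1% of all genes were called. It was not called in STZ+AOS against AOS. Bub1, a spindle checkpoint kinase, came to about 24.5 reads over all 18 libraries, and was at 0 in 4 of them.

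Of the 43 members, 27 had a mean of at least 0.5 RPKM and were tested among 11342 genes, and 16 did not. The filter used the mean over all 18 libraries and not the groups. The 16 were Ccne2 and Ccna2 among the cyclins, Foxm1 among the transcription factors, Cdc6 and Mcm5 in licensing, Uhrf1 in replication, and Cdk1, Ccnb1, Ccnb2, Cdc20, Plk1, Aurkb, Bub1, Bub1b, Top2a and Mki67 in mitosis.

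The proliferation antigen Mki67 showed how low these were. Its RPKM was 0.24, 0.11 and 0.16 in Con, 0.42, 0.13 and 0.14 in STZ, and 0.06, 0.15 and 0.24 in STZ+AOS. It was 0.09, 0.21 and 0.14 in AOS, 0.16, 0.12 and 0.27 in A10-FMT, and 0.39, 0.09 and 0.17 in Con-FMT. The groups overlapped throughout, and the highest value, in STZ mouse 1, was about 53.6 reads.

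Top2a, the topoisomerase that untangles replicated DNA, read 0.29, 0.09 and 0.13 RPKM in Con, 0.12, 0.16 and 0.13 in AOS, and 0.36, 0.08 and 0.12 in STZ. It read 0.05, 0.16 and 0.17 in STZ+AOS, 0.23, 0.13 and 0.29 in A10-FMT, and 0.34, 0.17 and 0.13 in Con-FMT. Cdk1 read 0.39, 0.20 and 0.20 in Con, 0.16, 0.24 and 0.13 in AOS, 0.47, 0.12 and 0.26 in STZ, 0.12, 0.32 and 0.58 in STZ+AOS, 0.14, 0.24 and 0.53 in A10-FMT, and 0.56, 0.29 and 0.44 in Con-FMT. For both genes, as for Mki67, every group overlapped with Con. In STZ mouse 1, 18 of the 43 members had their highest value of all libraries, among them 7 of the 13 mitosis members and 9 of the 16 members under the filter. The share of all genes with their highest value in that mouse was not determined.

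**Figure D2:**
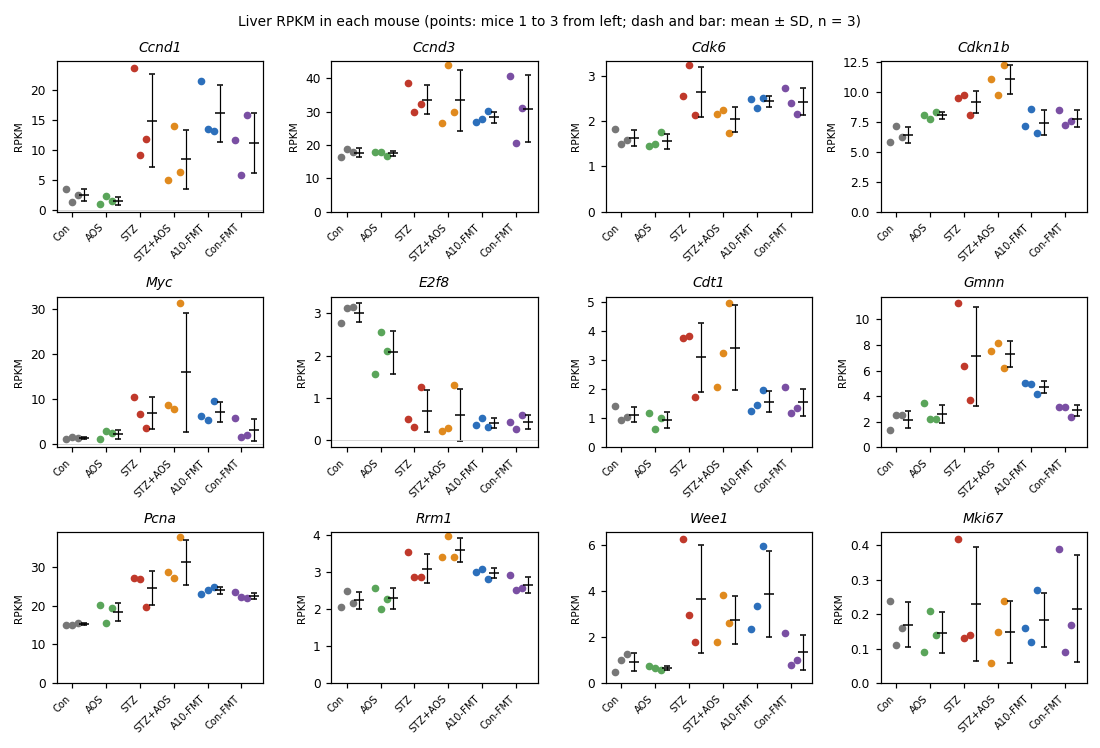
RPKM of 12 members in each mouse, on a linear scale, with group mean and SD (n = 3). Ccnd1, Myc, Gmnn and Wee1 are higher in every STZ mouse than in every Con mouse, E2f8 is lower, and Mki67 overlaps between all groups.

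With STZ, 3 of 5 D cyclins and kinases, both inhibitors, Myc, 2 of 7 tested licensing genes, 2 of 5 tested replication genes and Wee1 rose, E2f8 fell, and the other tested members were not called. In STZ against Con, 11 of the 27 tested members rose and 1 fell at an adjusted p under 0.05 (limma on log2(RPKM + 0.5), Benjamini-Hochberg over all genes tested). Among all genes tested, 29.9% rose and 5.07% fell. The member median was 0.30 on the log2 scale against 0.23 for all genes tested, so that changes near 0.23 matched the shift of the whole library. The STZ and Con mice did not overlap in 12 of the 27 tested members, against 46.5% of all genes tested, so that a lack of overlap was common in this comparison.

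Among the D cyclins, Ccnd1, which links growth signals to the cell cycle and is a marker of hepatocyte entry into G1, showed the largest rise of any tested member in this comparison. Ccnd1 (ENSMUSG00000070348, chr7:144929931-144939925, minus strand) read 3.49, 1.39 and 2.50 RPKM in Con and 23.8, 9.17 and 11.9 in STZ. Every STZ mouse was above every Con mouse. The change was 2.34 ± 0.44 (log2 ± SE; adjusted p = 0.00126). Ccnd3 read 16.4, 18.9 and 17.9 RPKM in Con and 38.5, 29.9 and 32.3 in STZ, again without overlap, and rose by 0.90 ± 0.20 (adjusted p = 0.00374).

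The partner kinase Cdk6 read 1.82, 1.49 and 1.58 RPKM in Con and 2.56, 3.24 and 2.13 in STZ, without overlap, and rose by 0.55 ± 0.13 (adjusted p = 0.00586). Ccnd2 and Cdk4 were not called, with log2 differences of 0.17 ± 0.16 and 0.13 ± 0.13.

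The inhibitors rose with the cyclins. Cdkn1b, which encodes p27 and restrains Cdk2, read 5.80, 7.14 and 6.26 RPKM in Con and 9.50, 9.76 and 8.07 in STZ, and rose by 0.48 ± 0.12 (adjusted p = 0.00637). No STZ mouse overlapped with Con. Cdkn2c, which encodes p18 and inhibits Cdk4 and Cdk6, ranged from 1.25 to 1.85 RPKM in Con and from 1.82 to 5.73 in STZ, and rose by 0.95 ± 0.26 (adjusted p = 0.0107) although STZ mouse 3 lay inside the Con range. Neither Ccne1 (0.30 ± 0.26), a cyclin that activates Cdk2, nor Cdk2 (0.18 ± 0.14) was called.

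The transcription factors moved apart. Myc, a driver of cell growth, read 1.16, 1.42 and 1.30 RPKM in Con and 10.4, 6.61 and 3.41 in STZ, without overlap, and rose by 1.91 ± 0.52 (adjusted p = 0.0113). E2f8, which represses E2F targets and takes part in hepatocyte polyploidization, read 2.77, 3.14 and 3.15 RPKM in Con and 0.50, 0.29 and 1.25 in STZ, and fell by 1.66 on the log2 scale (SE 0.32; adjusted p = 0.00147). All 3 STZ mice were below Con. The activator E2f1 was not called (-0.22 ± 0.23).

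In licensing, the loading factor Cdt1 and its inhibitor Gmnn both rose. Cdt1 read 1.43, 0.93 and 1.04 RPKM in Con and 3.76, 3.84 and 1.74 in STZ, a rise of 1.10 ± 0.29 (adjusted p = 0.00916). Gmnn read 1.38, 2.56 and 2.52 in Con and 11.3, 6.38 and 3.66 in STZ, a rise of 1.43 ± 0.29 (adjusted p = 0.00204). In neither gene did the STZ mice overlap with Con, and STZ mouse 3 was the lowest of its group in both.

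The tested helicase subunits were not called. Mcm6 read 0.66, 1.09 and 0.81 RPKM in Con and 2.41, 1.36 and 0.53 in STZ, so that STZ mouse 3 was below and STZ mice 1 and 2 above every Con mouse (0.40 ± 0.31; adjusted p = 0.328). Mcm2, Mcm3, Mcm4 and Mcm7 overlapped between the groups and differed by -0.08 to 0.19 on the log2 scale, none of them called. Without STZ mouse 3, Mcm6 was called and the count of called members became 12 higher and 1 lower. Of all genes tested, 35.27% were then higher and 6.577% lower, against 29.9% and 5.07% with all mice. Without STZ mouse 1 the count became 7 higher and 1 lower, with Myc, Rrm1, Cdkn2c and Wee1 no longer called. The shares of all genes tested were then 21.99% higher and 3.562% lower, so that both counts moved in the same direction as these shares.

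Of the genes for DNA synthesis, Pcna read 15.1, 15.0 and 15.6 RPKM in Con and 27.1, 26.9 and 19.6 in STZ, and rose by 0.65 ± 0.14 (adjusted p = 0.00253). Rrm1, the large subunit of ribonucleotide reductase, read 2.05, 2.50 and 2.17 in Con and 3.54, 2.87 and 2.86 in STZ, and rose by 0.39 ± 0.11 (adjusted p = 0.0153). Both were without overlap. Rrm2, the small subunit (-0.11 ± 0.20), Tyms, which makes thymidylate (-0.14 ± 0.12), and Tk1 (0.48 ± 0.36) were not called, and Tk1 read 32.8 in STZ mouse 1 against 10.3 and 10.1 in the other STZ mice.

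Wee1, the kinase that holds Cdk1 inactive before mitosis, was the only one called of the 3 tested members of the mitosis group. It read 0.50, 1.00 and 1.25 RPKM in Con and 6.28, 2.95 and 1.78 in STZ, without overlap, and rose by 1.45 ± 0.39 (adjusted p = 0.0107). Aurka, a spindle kinase (0.25 ± 0.15), and Birc5, which encodes survivin (0.28 ± 0.30), overlapped between the groups and were not called.

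Some markers of other cells were called in STZ against Con, where 29.9% of all genes tested rose, 5.07% fell and the median was 0.23. Of 9 Kupffer cell and macrophage markers, 4 rose in STZ (list median 0.60 on the log2 scale), and their summed RPKM was 63.7 to 87.2 in Con and 155, 232 and 89.7 in STZ mice 1, 2 and 3. Stellate cell and fibroblast markers (2 of 8 rose, median 0.12) summed to 74.3 to 85.9 in Con and 111 to 136 in STZ, mostly from Dcn at 61.4 to 71.6 and 99.6 to 116.6, and endothelial markers (2 of 8 rose, median 0.41) to 52.7 to 61.3 and 60.2 to 78.9. No marker of these 3 lists was at 0 in all Con or all STZ libraries, and their part in the changes of the members was not tested. In bulk liver, fewer cells of a type and less RNA per cell cannot be told apart.

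Other marker lists gave these values for Con and STZ. Of the 10 T and B cell markers 2 were tested and 1 fell, with sums of 4.70 to 5.63 and 2.14 to 3.84. Of 10 neutrophil and myeloid precursor markers 4 were tested and 1 fell (3.51 to 19.6 and 1.80 to 6.40), and of 9 erythroid precursor markers 7 were tested, 1 rose and 1 fell (1050 to 1983 and 436 to 1655). Of 6 cholangiocyte markers 4 were tested and 1 fell (23.1 to 41.2 and 21.3 to 41.3), and of 8 hepatocyte markers 4 rose and 2 fell. Of 9 exocrine pancreas markers 5 were tested and 1, Cela1, fell. The sums were 32.4 to 41.2 and 3.58 to 8.77, mostly from Cela1 at 30.8 to 40.5 and 2.96 to 8.73. In every STZ library 4 of the 9 were at 0.

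The contrast was repeated in other mice, since STZ+AOS against AOS shares no mice with STZ against Con. Both contrasts used 1 shared estimate of the spread of each gene, from the model over 6 groups, so their calls are not fully independent. In STZ+AOS against AOS 10 of 27 tested members rose and 1 fell, against 30.6% and 5.85% of all genes tested. The member median was 0.23, the same as that of all genes tested. The mice did not overlap in 14 of the 27 tested members and in 48.0% of all genes tested.

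The 10 members called in the same direction in both comparisons made up 83.3% of those called in the first and 90.9% of those called in the second. Of all genes called in the first and the second comparison, 68.9% and 66.0% were called in the same direction in both. The 10 were 37.0% of the tested members, and the share of all genes tested was 24.1%. They were Ccnd1, Ccnd3, Cdkn1b, Myc, Cdt1, Gmnn, Pcna, Rrm1 and Wee1, all higher, and E2f8, lower. Cdk6 and Cdkn2c were called only in STZ against Con, and Ccne1 only in STZ+AOS against AOS, and no member was called for a difference between the 2 STZ effects.

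**Figure D3:**
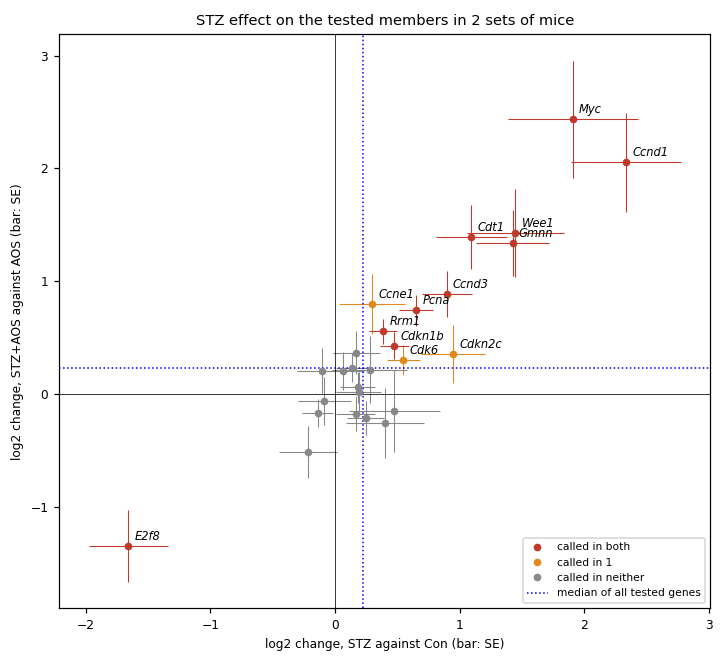
log2 change of the 27 tested members in STZ against Con (horizontal) and STZ+AOS against AOS (vertical), with SE bars and dotted lines at the median of all genes tested. Red points, called in both, run from E2f8 at the lower left to Ccnd1 and Myc at the upper right.

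Ccnd1 read 0.93, 2.29 and 1.42 RPKM in AOS and 4.96, 14.1 and 6.40 in STZ+AOS, a rise of 2.05 ± 0.44 (adjusted p = 0.00279). Pcna read 20.2, 15.6 and 19.3 in AOS and 28.7, 27.1 and 37.7 in STZ+AOS (0.74 ± 0.14; adjusted p = 0.00121). Both were without overlap, as were Rrm1 at 2.58, 2.0 and 2.28 against 3.40, 3.97 and 3.41 (0.56 ± 0.11; adjusted p = 0.00197) and Cdt1 at 1.20, 0.65 and 1.00 against 2.08, 3.25 and 4.98 (1.39 ± 0.29; adjusted p = 0.00228).

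Gmnn read 3.46, 2.19 and 2.2 RPKM in AOS and 7.52, 8.15 and 6.20 in STZ+AOS, a rise of 1.34 ± 0.29 (adjusted p = 0.00305). Myc read 1.01, 2.93 and 2.39 in AOS and 8.64, 7.72 and 31.1 in STZ+AOS, a rise of 2.44 ± 0.52 (adjusted p = 0.00279). E2f8 read 1.55, 2.56 and 2.11 in AOS and 0.21, 0.27 and 1.31 in STZ+AOS, and fell by 1.35 on the log2 scale (SE 0.32; adjusted p = 0.00510).
In all 3 genes the groups did not overlap. STZ+AOS mouse 3 held the highest Myc and the highest E2f8 of its group.

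Ccnd3 read 17.8, 17.9 and 16.6 RPKM in AOS and 26.7, 43.8 and 29.8 in STZ+AOS (0.89 ± 0.20; adjusted p = 0.00402). Wee1 read 0.76, 0.68 and 0.58 against 1.79, 3.86 and 2.63 (1.43 ± 0.39; adjusted p = 0.0113). Cdkn1b read 8.06, 7.72 and 8.33 against 11.1, 9.76 and 12.2 (0.43 ± 0.12; adjusted p = 0.0115). None of these overlapped between the groups.

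Ccne1 ranged from 0.33 to 0.43 RPKM in AOS and from 0.95 to 1.06 in STZ+AOS, and rose by 0.80 ± 0.26 (adjusted p = 0.0280). Its Con values, 1.32, 0.31 and 0.54, spanned the STZ+AOS range, and its call was lost in 8 of 14 alternatives, among them both scalings and leaving out any 1 AOS mouse. Mcm6 read 0.90, 1.13 and 0.96 in AOS and 0.41, 0.62 and 1.42 in STZ+AOS (-0.26 ± 0.31; adjusted p = 0.544), and Cdk6 read 1.44, 1.49 and 1.75 against 2.15, 2.24 and 1.73 (0.30 ± 0.13; adjusted p = 0.0892).

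STZ+AOS mouse 3 carried a summed exocrine pancreas marker level of 89.0 RPKM against 3.61 and 5.27 in its group. Of these sums, Cela1 was 4.39 in mouse 3 and 3.10 and 4.16 in mice 1 and 2. STZ+AOS mouse 3 held the highest value of 9 of the 43 members, and the share of all genes highest there was not determined. Without STZ+AOS mouse 3, 10 members rose and 2 fell, with Cdk6 and E2f1 called and Ccne1 not, while 25.9% of all genes rose and 4.77% fell. In STZ+AOS against AOS 2 of 9 Kupffer cell and macrophage markers, 1 of 8 stellate and 1 of 8 endothelial markers rose, where 30.6% of all genes rose. The Kupffer cell sums were 73.9 to 87.5 in AOS and 99.4 to 142 in STZ+AOS. Among the remaining lists, 2 neutrophil and myeloid precursor markers rose, 1 T and B cell marker fell, 1 erythroid marker rose and 1 fell, 1 exocrine pancreas marker fell, no cholangiocyte marker was called, and 4 hepatocyte markers rose and 2 fell.

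Scaling changed some of these calls. Under median-ratio scaling the median of all genes moved from 0.23 to near 0, and of the genes called in STZ against Con 1345 rose and 1317 fell (50.5% higher). The members called became 8 higher and 2 lower in each comparison, with 9 of the called members retained in each and Tyms, lower, added. Of all genes tested, 11.86% were then higher and 11.61% lower in STZ against Con. In STZ+AOS against AOS the shares were 11.83% and 11.59%. Cdkn1b was not called in either comparison under this scaling, and Cdk6 and Rrm1 not in STZ against Con, while Ccnd1, Ccnd3, Myc, Cdt1, Gmnn, Pcna and Wee1 remained higher and E2f8 lower in both.

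Genes of the same pathways outside the 43 were read from lists chosen with earlier results known. Of 33 tested of 40 other DNA replication genes, 5 rose in STZ against Con and 9 in STZ+AOS against AOS and none fell, with medians of 0.24 and 0.31, where 29.9% and 30.6% of all genes tested rose. They included the origin recognition subunit Orc3 (0.45 ± 0.11; adjusted p = 0.00664) in STZ against Con and the clamp loader subunit Rfc1 (0.31 ± 0.08; adjusted p = 0.00644) in STZ+AOS against AOS. Of 12 tested of 44 other mitosis genes in the table, none rose and 1 fell in each comparison, Ccnf in the first (-0.57 ± 0.20; adjusted p = 0.0356) and Spc24 in the second (-0.71 ± 0.22; adjusted p = 0.0203), with medians of -0.02 and -0.03.

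Of 25 tested other regulators of G1, 9 rose and 1 fell in STZ against Con and 11 rose and 1 fell in STZ+AOS against AOS (medians 0.27 and 0.27). Those that rose included the growth arrest gene Ccng1, a p53 target, at 9.25, 10.1 and 10.1 RPKM in Con and 22.4, 17.3 and 22.03 in STZ (1.02 ± 0.14; adjusted p = 0.000148), the MYC relative Mycl (2.0 ± 0.25; adjusted p = 9.83e-05) and Rbl2, which encodes the pocket protein p130 of quiescent cells (0.92 ± 0.14; adjusted p = 0.000306). Skp2, the ligase subunit that degrades p27, fell in both (-0.47 ± 0.16, adjusted p = 0.0314, and -0.42 ± 0.16, adjusted p = 0.0483). Cdkn1c, which encodes p57, rose in STZ+AOS against AOS (1.56 ± 0.32, adjusted p = 0.00228). Its RPKM was 0.27, 0.84 and 0.62 in Con and 5.03, 4.03 and 1.27 in STZ, without overlap.

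Of 9 tested immediate-early genes, 4 rose in STZ against Con and 3 in STZ+AOS against AOS (medians 1.33 and 1.32), among them Ier3 (1.99 ± 0.27; adjusted p = 0.000154), Junb (2.21 ± 0.32; adjusted p = 0.000224) and Klf6 (1.33 ± 0.43; adjusted p = 0.0251) in the first. The summed RPKM of the list was 65.4 to 68.6 in Con, 127, 130 and 431 in STZ, and 322 in Con-FMT mouse 2. In STZ+AOS mice 1, 2 and 3 the sum was 115, 90.4 and 212. STZ mouse 3, with the highest of these sums, had the lowest Myc, Cdt1 and Gmnn of its group. STZ+AOS mouse 3, with the highest sum of its group, had the highest Myc and Cdt1 and the lowest Gmnn there. The part of this list in the members' values was not tested.

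**Figure D4:**
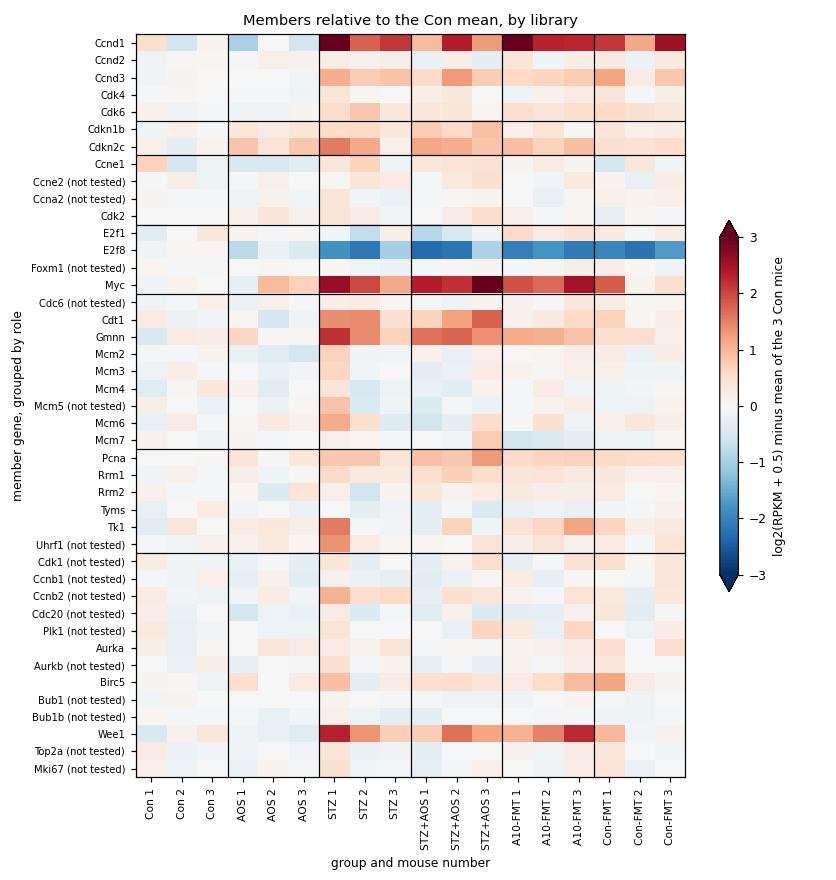
log2(RPKM + 0.5) of the 43 members minus the mean of the 3 Con mice, with a column for each library, with colours limited to -3 and 3. Ccnd1 is red and E2f8 blue in all 12 mice given STZ, Myc, Gmnn and Wee1 are on average paler in Con-FMT than in STZ, and most licensing and mitosis rows stay pale.

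The transplants did not bring a called change in any member against STZ. In A10-FMT against STZ 0 of 27 members were called by limma (0.467% of all genes tested were). An unadjusted p under 0.05 was found for 4 of the 27 members and for 2107 of all 11342 genes tested. In Con-FMT against STZ 0 were called (0.132% of all genes), and 3 members and 2084 of all 11342 genes had an unadjusted p under 0.05. The 2 comparisons share the STZ mice.

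The members with an unadjusted p under 0.05 in A10-FMT against STZ were E2f1 (0.63 ± 0.23), Mcm7 (-0.49 ± 0.17), Cdt1 (-0.76 ± 0.29) and Cdkn1b (-0.28 ± 0.12), with adjusted p from 0.153 to 0.224. E2f1 read 0.70, 0.26 and 0.94 RPKM in STZ and 1.38, 1.01 and 1.22 in A10-FMT, and Mcm7 read 6.66, 6.24 and 5.79 against 3.86, 4.29 and 4.78, both without overlap, as 21.0% of all genes tested. Cdt1 read 1.27, 1.46 and 1.97 in A10-FMT, overlapping with the 1.74 of STZ mouse 3. Cdkn1b read 7.14, 8.57 and 6.58 in A10-FMT, which overlapped with STZ.

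In Con-FMT against STZ, Gmnn read 3.12, 3.18 and 2.37 RPKM, below every STZ mouse, where 17.5% of all genes tested did not overlap (-1.05 ± 0.29; adjusted p = 0.107). Wee1 read 2.2, 0.80 and 1.02 (-1.11 ± 0.39; adjusted p = 0.162) and Cdt1 read 2.09, 1.20 and 1.36 (-0.78 ± 0.29; adjusted p = 0.175), both overlapping with STZ. The counts of both comparisons changed with STZ mouse 3. Without it, Cdt1 (lower) and E2f1 (higher) were called in A10-FMT against STZ, and Cdt1, Cdkn2c, Gmnn and Wee1, all lower, in Con-FMT against STZ, while the shares of all genes called were 8.66% and 11.3%.

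**Figure D5:**
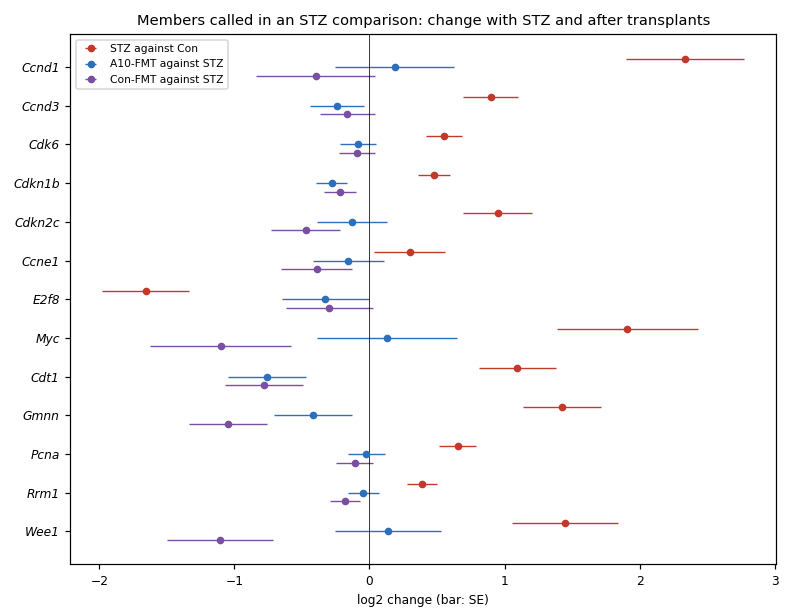
log2 change with SE of the 13 members called in either STZ comparison, for STZ against Con (red), A10-FMT against STZ (blue) and Con-FMT against STZ (purple), which share the STZ mice. For Ccnd1, Pcna and E2f8 the transplant points lie near 0, and for Cdt1 both lie to the left.

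Against Con, members differed in both transplant groups. In A10-FMT 9 of 27 members were higher and 1 was lower (14.2% and 2.3% of all genes), and in Con-FMT 4 were higher and 1 lower (15.5% and 1.68%). These comparisons share the Con mice with each other and with STZ against Con. Ccnd1, Ccnd3, Cdk6 and Pcna were higher and E2f8 lower in both, and Cdkn2c, Myc, Gmnn, Rrm1 and Wee1 were called higher in A10-FMT alone, although no member was called for a difference between the transplants. Overlap with Con was absent for 14 of the 27 tested members after A10-FMT (47.0% of all genes tested) and for 9 after Con-FMT (44.1%).

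Ccnd1 read 21.7, 13.6 and 13.3 RPKM in A10-FMT and 11.7, 5.87 and 15.9 in Con-FMT, each mouse above Con (2.52 ± 0.44, adjusted p = 0.00224, and 1.94 ± 0.44, adjusted p = 0.0106). E2f8 read 0.35, 0.52 and 0.31 in A10-FMT and 0.41, 0.26 and 0.58 in Con-FMT, all below Con (-1.98 ± 0.32, adjusted p = 0.00132, and -1.95 ± 0.32, adjusted p = 0.00189). Pcna read 22.9, 24.1 and 24.8 in A10-FMT and 23.4, 22.1 and 21.9 in Con-FMT, all above Con (0.63 ± 0.14, adjusted p = 0.00833, and 0.54 ± 0.14, adjusted p = 0.0167).

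Myc read 6.24, 5.35 and 9.58 RPKM in A10-FMT (2.04 ± 0.52; adjusted p = 0.0169) and 5.81, 1.44 and 2.01 in Con-FMT. Wee1 read 2.34, 3.36 and 5.97 in A10-FMT (1.59 ± 0.39; adjusted p = 0.0146). Ccnd3 read 26.8, 27.8 and 30.0 in A10-FMT and 40.8, 20.7 and 31.1 in Con-FMT (0.73 ± 0.20; adjusted p = 0.0239). Gmnn read 5.06, 4.94 and 4.18 in A10-FMT, with a rise of 1.01 ± 0.29 over Con (adjusted p = 0.0284). All of the called differences here were without overlap with Con.

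These counts changed with single mice and with the scaling. Under median-ratio scaling 4 members were higher and 2 lower in A10-FMT against Con, and 1 was higher and 1 lower in Con-FMT against Con, while the genes called were 544 higher and 487 lower, and 373 higher and 334 lower, in place of 1609 and 261, and 1760 and 190. In A10-FMT against Con the count of called members was 3 without Con mouse 1, 4 without Con mouse 3, 5, 6 and 3 without A10-FMT mice 1, 2 and 3. The shares of all genes called were then 5.70%, 8.2%, 8.81%, 10.8% and 5.94%, against 16.5% with all mice. In Con-FMT against Con the count of called members was 2 without Con mouse 1, 3 without Con mouse 3 and 1, E2f8, without Con-FMT mouse 1. The shares of all genes called were then 5.3%, 8.1% and 4.21%, against 17.2% with all mice. Cdk6 read 2.50, 2.29 and 2.52 RPKM in A10-FMT and 2.74, 2.40 and 2.16 in Con-FMT and rose by 0.47 ± 0.13 (adjusted p = 0.0278) and 0.46 ± 0.13 (adjusted p = 0.0299), and lost its call in both comparisons without any 1 of the Con mice.

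The 2 transplants were not separated from each other, with 0 members called by limma, 0% of all genes called and 4 members at an unadjusted p under 0.05 (262 of all genes). These were Wee1 (1.24 ± 0.39), Myc (1.23 ± 0.52) and Gmnn (0.63 ± 0.29), higher in A10-FMT, and Mcm7 (-0.37 ± 0.17), lower. Each had an adjusted p of 0.9999.

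AOS without STZ gave 0 called members and 0% of all genes called, with 836 genes and 2 members at an unadjusted p under 0.05. The 2 were both inhibitors. Cdkn1b read 8.06, 7.72 and 8.33 RPKM in AOS, all above the Con mice (0.31 ± 0.12; adjusted p = 0.609), and Cdkn2c ranged from 2.23 to 3.23 against 1.25 to 1.85 (0.67 ± 0.26; adjusted p = 0.616).

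STZ+AOS against STZ also gave 0 called members and 0% of all genes, with 682 genes and 3 members at an unadjusted p under 0.05. The members were Pcna (0.34 ± 0.14), Cdkn1b (0.26 ± 0.12) and Cdk6 (-0.30 ± 0.13), each with an adjusted p of 0.817. The difference between the 2 STZ effects gave 0 called members and 0% of all genes, with 612 genes and 1 member, Aurka (-0.46 ± 0.21; adjusted p = 0.855), at an unadjusted p under 0.05.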

How the data were processed

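Liver RNA of 18 mice was sequenced and 1 RPKM value per gene and library was deposited. The authors mapped the reads to mm10 and computed RPKM; the labels name Bowtie 0.12.2 and the methods another aligner, and whether strand was used is not given in the sources used here. Groups came from the treatment labels. Since only RPKM were given, the count-based test of the study (limits FDR 0.001 and log2 1) was not run. Values were tested on log2(RPKM + 0.5) with limma 3.58.1 (R 4.3.3, with trend), 1 model over 6 groups, two-sided, genes with a mean of 0.5 RPKM or more, Benjamini-Hochberg over 11342 genes. Fold changes on this scale understate changes of low genes. The 3 mice per group limit precision, and p-values measure the spread between these mice. In simulated data for STZ against Con (11342 genes), 76 of 100 genes changed by log2 1 and 96 of 100 changed by log2 2 were recovered, with 4 false calls. Far fewer genes were changed there than the 34.95% called in STZ against Con, and recovery at that share was not tested. Depth was estimated from RPKM multiplied by transcript length (GENCODE M21) within a preset window of 45 to 110, which is approximate. Members and lists were chosen with earlier results of these data known. Every mouse's value is given for up to 4 rising and 4 falling members with the smallest adjusted p per comparison and for Mki67, Top2a, Cdk1, Ccnd1, Pcna, Mcm6, Cdkn1b and Myc; others are described by range. Alternatives covered pseudocount, filter, scaling, replicate block, groups and left-out mice.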

Additional observations from a re-analysis of the deposited data

How the results depend on the processing

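Of 559 values of called members under alternatives, 430 kept direction and call, 129 lost the call and 0 reversed. The study's limits (FDR 0.001 and log2 1) were also applied to the limma test. The count of called members was then 0 in STZ against Con, STZ+AOS against AOS, A10-FMT against Con and Con-FMT against Con. Of all genes tested only 2.998%, 2.848%, 0.67% and 0.485% passed, so that 0 of 27 members was near those shares. In A10-FMT against Con the count at an adjusted p under 0.05 was 10, but 5 with no filter, 6 with median-ratio scaling and 5 with quantile normalization. The shares of all genes called were 8.33%, 9.09% and 8.5% in these 3 settings. In Con-FMT against Con the count was 5, but 2 with either scaling, where 6.23% and 6.11% of all genes were called. Leaving out 1 mouse at a time gave 8 to 13 members in STZ against Con, 10 to 12 in STZ+AOS against AOS, 0 to 2 in A10-FMT against STZ, 0 to 4 in Con-FMT against STZ, 3 to 7 in A10-FMT against Con, 1 to 6 in Con-FMT against Con, and 0 in the other comparisons. With a replicate block the counts were 12 in STZ against Con and 11 in STZ+AOS against AOS (33.95% and 35.63% of all genes called). They were 8 in A10-FMT against Con and 5 in Con-FMT against Con (15.36% and 15.43%). Same-numbered mice deviated together (r over 0.1 for every number) in 1 of 15 pairs of groups, A10-FMT with Con-FMT (0.12, 0.28 and 0.18). In that pair the block also gave 0 called members. Over all pairs r ran from -0.24 to 0.44, with 16 of 45 over 0.1. The cause of these shifts was not tested. Low read numbers limit the mitotic genes, such as Bub1 at an estimated median of 1.35 reads per library, against 385 for Ccnd1. Both read numbers rest on the approximate depth estimate.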
